A study of Rattus norvegicus with 28 samples.

Results

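The genes described here encode the cytoskeleton, the motors and the vesicle traffic machinery of the rat dorsal root ganglion (DRG). They are the 76 genes whose symbols start with 1 of 29 family prefixes (tubulins, kinesins, dyneins, dynamins, Map2, stathmins, myosins, actinins, ankyrins, spectrins, Rab, Arf and Arl GTPases, synaptotagmins, syntaxins, Vamp and Snap proteins, sorting nexins, Vps proteins, clathrin adaptors, Sv2 proteins and complexins) in the study's list of genes with changed expression in both of its pain models. That list holds 1949 genes, and the count table holds 32754 genes, of which 21122 had at least 1 count in either library. The list was chosen by the study on libraries that include those described here, so membership carries no test, and levels are given as description.

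A sensory neuron in the DRG has an axon with a branch to the skin or muscle and a branch to the spinal cord. Nearly all proteins of the neuron are made in the cell body. Tubulins form the microtubule tracks, kinesins carry most cargo outwards, and cytoplasmic dynein carries cargo back. Rab and Arf GTPases mark membranes, adaptors and dynamins form vesicles, and SNAREs with their regulators fuse them with the target membrane.

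The animals were male rats of the Sprague-Dawley strain, adult at 12 weeks, in 2 models of persistent pain. Complete Freund's adjuvant (CFA), an emulsion of killed mycobacteria that inflames the hind paw, was given 48 h before the tissue was taken. Chronic constriction injury (CCI), in which the sciatic nerve is loosely tied, was made 14 days before. Naïve rats had neither. The ipsilateral lumbar ganglia L4 to L6 of 1 rat were pooled for each library, so a library stands for 1 animal and mixes neurons, Schwann cells, satellite glia and connective tissue. RNA-seq of polyadenylated transcripts is described for 2 CFA libraries, whose counts on genes sum to 10520647 and 28825688. Chromatin accessibility by ATAC-seq is described for 6 CCI, 6 CFA and 3 naïve libraries. RNA-seq of naïve and CCI animals was not analysed here, so no change in expression with pain was measured.

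Promoter sequences are shown first for members on which the results turn. These are the beta-tubulin genes, whose reads made up most of the tubulin reads, and Kif5c, which shares a motif with Tubb2a. Map2, among the members with the fewest CpG dinucleotides, is shown as a contrast. Each run is the 250 bases before the start of the RefSeq gene model, written 5′ to 3′ on the gene's strand in build GRCr8. Capitals mark matches, on either strand, to 7 motifs. These are the TATA box with the letters TATAAA, the CCAAT box with the letters of its name, the GC box with GGGCGG, the cAMP response element with TGACGTCA, the E-box with CACGTG, the AP-1 motif with TGACTCA and the core of the ETS motif with CGGAAG. The windows are Tubb3 at chr19:68365437-68365686 on the plus strand, Tubb2a at chr17:31001936-31002185 on the plus strand, Tubb2b at chr17:30952836-30953085 on the plus strand, Tubb4b at chr3:28438456-28438705 on the minus strand, Kif5c at chr3:54441057-54441306 on the plus strand and Map2 at chr9:75346440-75346689 on the plus strand.
Tubb3: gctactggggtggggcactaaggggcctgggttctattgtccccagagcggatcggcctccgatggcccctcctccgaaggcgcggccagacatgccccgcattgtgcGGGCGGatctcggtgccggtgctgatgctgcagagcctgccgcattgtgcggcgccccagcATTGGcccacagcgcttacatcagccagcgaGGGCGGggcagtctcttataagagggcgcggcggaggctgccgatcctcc
Tubb2a: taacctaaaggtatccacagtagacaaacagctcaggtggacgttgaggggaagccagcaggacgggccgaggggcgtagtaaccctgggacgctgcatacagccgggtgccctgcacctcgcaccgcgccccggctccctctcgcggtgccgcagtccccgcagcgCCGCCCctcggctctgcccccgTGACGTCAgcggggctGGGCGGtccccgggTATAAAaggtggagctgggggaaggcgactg
Tubb2b: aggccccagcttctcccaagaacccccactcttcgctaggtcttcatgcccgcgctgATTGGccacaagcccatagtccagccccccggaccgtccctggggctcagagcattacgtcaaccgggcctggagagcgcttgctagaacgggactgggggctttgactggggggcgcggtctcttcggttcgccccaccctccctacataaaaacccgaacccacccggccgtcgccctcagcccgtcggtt
Tubb4b: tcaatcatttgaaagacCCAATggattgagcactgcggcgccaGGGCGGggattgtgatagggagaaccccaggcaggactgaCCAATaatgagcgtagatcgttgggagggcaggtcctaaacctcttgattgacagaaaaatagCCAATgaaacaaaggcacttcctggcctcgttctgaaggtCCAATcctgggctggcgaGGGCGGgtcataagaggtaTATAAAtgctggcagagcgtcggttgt
Kif5c: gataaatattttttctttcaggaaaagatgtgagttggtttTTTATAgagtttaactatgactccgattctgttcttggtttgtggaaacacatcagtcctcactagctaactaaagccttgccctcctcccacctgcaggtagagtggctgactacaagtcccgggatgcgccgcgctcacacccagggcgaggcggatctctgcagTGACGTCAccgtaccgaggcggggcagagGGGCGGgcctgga
Map2: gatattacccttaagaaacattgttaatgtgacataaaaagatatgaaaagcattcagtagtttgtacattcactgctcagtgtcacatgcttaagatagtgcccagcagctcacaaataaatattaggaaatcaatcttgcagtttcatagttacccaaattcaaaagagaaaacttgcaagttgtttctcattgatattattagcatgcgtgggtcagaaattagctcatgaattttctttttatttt

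Tubb2a and Tubb4b held TATAAA on the gene's strand, with its first base 31 and 27 bases before the start. The Kif5c match to TATAAA lay on the opposite strand, 209 bases before the start. Tubb2a and Kif5c both held TGACGTCA, 61 and 42 bases before the start. Tubb4b held 4 CCAAT matches on the gene's strand, 233, 167, 104 and 64 bases before the start. Tubb2b held 1 CCAAT match and no GGGCGG, and the Map2 window held none of the 7 motifs. None of the marked matches overlapped another.

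A promoter window of 300 bases, 250 before and 50 after the start, was given by RefSeq for 65 of the 76 members. The motif seen in most of them was GGGCGG, present in 44 of 65 (67.7%), against 41.8% of the 21851 promoters of protein-coding genes and 33.1% of all 33469 promoters. Both backgrounds include genes at any level of expression, and no share was computed for genes of like level. TATAAA was present in 9 of 65 (13.8%) against 13% of protein-coding promoters and 14.2% of all promoters. These were the promoters of Sytl3, Tubb2a, Stxbp5l, Kif3a, Tubb4b, Dnm1l, Kif5c, Sptb and Myoc. CCAAT was present in 24 of 65 (36.9%) against 38.0% and 37.5%. TGACGTCA was present in Tubb2a, Ap2b1 and Kif5c, 3 of 65 (4.62%), against 2.10% and 1.83%. For the other motifs the counts were 17 of 65 for CGGAAG (19.8% of protein-coding and 16.6% of all promoters), 5 for CACGTG (7.02% and 6.42%) and 1 for TGACTCA (4.12% and 4.63%).

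The member promoters were rich in G and C. Their median GC content was 62.7%, against 55.0% for promoters of protein-coding genes. The ratio of observed to expected CpG dinucleotides, which is high in promoters that escape DNA methylation in the germ line, had a median of 0.743 in the members and of 0.521 in protein-coding genes. It was above 0.6 in 47 of 65 members (72.3%) against 44.4% of protein-coding promoters. The highest ratios were those of Kif1b (1.14), Dync1li1 (1.11), Kif26b (1.10), Kif2a (1.08) and Dync1h1 (1.05), all from the kinesin and dynein groups. The dynein group also held ratios below 0.6, at Dync1i2 (0.487) and Dync1i1 (0.583). The lowest were those of Myoc (0.111), Map2 (0.120), Syt2 (0.185) and Sptlc3 (0.211). The 47 members above 0.6 had a median of 150.0 CPM (the count of a gene scaled to the library total) and the other 18 a median of 56.7 CPM. Across the 65 genes, which share the same libraries, the rank correlation of the CpG ratio with CPM was 0.093.

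**Figure D1:**
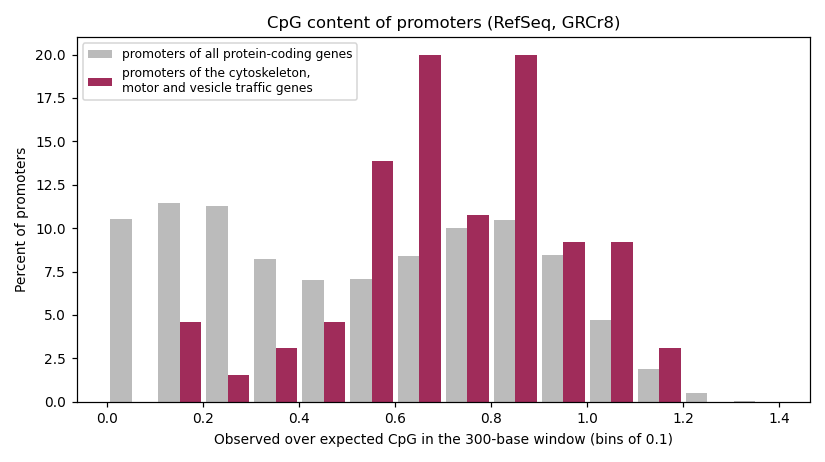
Share of promoters (y axis, percent) by observed over expected CpG (x axis, bins of 0.1) in 300-base windows, for 65 member promoters and 21851 promoters of protein-coding genes. Of the member promoters, 72.3% lie above 0.6, against 44.4% of protein-coding promoters, which include genes at any level of expression.

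The share of all counts that fell on the members was 2.59% in CFA replicate 1 and 2.68% in CFA replicate 2 (2.63% ± 0.0646, SD, n = 2). Their median was 147 CPM, with quartiles of 26.2 and 398 CPM and a range from 0.649 CPM (Vps25) to 2532 CPM (Tubb3). The other 1873 genes of the study's list had a median of 19.4 CPM, all genes with a count had 9.09 CPM, and the 15115 genes that reached 10 counts in each library had 21.4 CPM. CPM counts reads without regard to transcript length, so these values compare shares of reads and give no order of transcript numbers between genes. Of the 76 members, 7 had at least 1000 CPM, 36 had 100 to 1000 CPM, 22 had 10 to 100 CPM and 11 had under 10 CPM. Against all genes with a count, 14 members lay above the 99th percentile, 31 above the 95th and 42 above the 90th, while 9 lay below the median. The 10 members with most reads, which include Tubb3, Stmn2, Tubb2a, Kif1b, Dync1h1 and Syt11, took 59.7% of the reads on members in CFA replicate 1, and 58.6% in the other library.

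**Figure D2:**
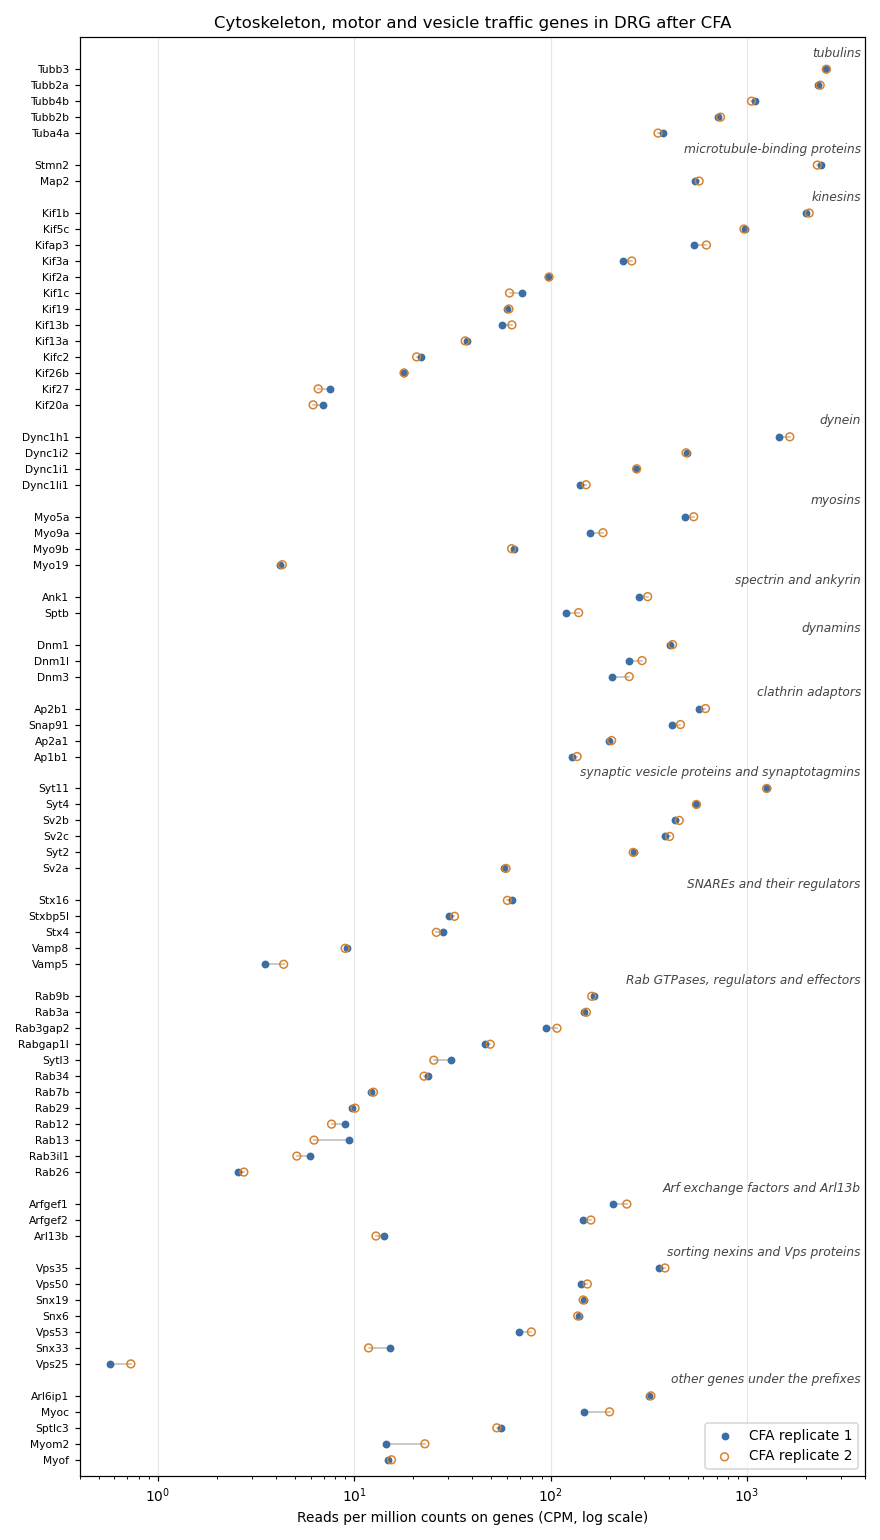
Reads of 75 of the 76 members (x axis, CPM, log scale) in CFA replicate 1 (filled) and CFA replicate 2 (open), grouped by role on the y axis. The points of a gene lie close together for most members, and the widest gaps are those of Myom2 and Rab13.

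The 5 tubulin genes had 364 to 2532 CPM. Tubb3 encodes the beta-tubulin of neurons. It had 2526 CPM in CFA replicate 1 and 2538 CPM in CFA replicate 2 (2532 ± 8.19, SD, n = 2), so the libraries hardly differed. Tubb2a, Tubb2b and Tubb4b encode further beta-tubulins and had 2332 ± 39.4, 722 ± 16.3 and 1074 ± 27.3 CPM. Tuba4a, the only alpha-tubulin gene among the members, had 375 and 353 CPM, the lowest values of the group. Among the beta-tubulin reads, Tubb3 took 38.1% in CFA replicate 1 (95% exact interval 37.7 to 38.4%) and 38.0% in CFA replicate 2 (37.7 to 38.2%). Tubb2a took 34.7% and 35.3%, Tubb4b took 16.5% and 15.8%, and Tubb2b took 10.7% and 11.0%. The intervals of the Tubb4b share, 16.2 to 16.8% and 15.6 to 15.9%, do not meet. All intervals cover counting error only. Tubulin genes are near-identical in their coding sequence, so reads can be split between Tubb2a, Tubb2b and Tubb4b, and the split is uncertain.

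Among the microtubule-binding proteins, Stmn2, a stathmin that binds tubulin dimers in growing axons, had 2394 and 2283 CPM. Map2, which decorates the microtubules of cell bodies and dendrites, had 545 and 571 CPM. The Stmn2 value was lower in the deeper library and the Map2 value was higher, each by less than 0.1 on the log2 scale.

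The 13 kinesin genes had a median of 60.8 CPM and a range of 6.56 to 2035 CPM. Kif1b, which carries mitochondria and synaptic vesicle precursors, had 1993 CPM in CFA replicate 1 and 2076 CPM in CFA replicate 2. Kif20a, a kinesin of cell division, had 6.94 and 6.18 CPM, the fewest reads of the group. Between them lay Kif5c (970 CPM), a heavy chain of conventional kinesin, Kifap3 (579 CPM) and Kif3a (246 CPM) of the heterotrimeric kinesin, Kif2a (97.9 CPM), which shortens microtubules from their ends, and the vesicle motors Kif1c (66.6 CPM), Kif13b (60.1 CPM) and Kif13a (37.1 CPM). Kif19 (60.8 CPM) and Kif27 (7.03 CPM) are kinesins linked to cilia, Kifc2 (21.3 CPM) has its motor at the C terminus, and Kif26b had 17.9 CPM. Kif13b had 56.6 CPM in CFA replicate 1 and 63.6 CPM in CFA replicate 2.

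The 4 genes of cytoplasmic dynein had 147 to 1554 CPM. Dync1h1, the heavy chain that holds the motor domain, had 1456 CPM in CFA replicate 1 and 1653 CPM in CFA replicate 2. Dync1li1, a light intermediate chain that links the motor to cargo adaptors, had 142 and 152 CPM. The intermediate chains Dync1i1 and Dync1i2 had 274 ± 0.375 and 492 ± 3.21 CPM. Of the reads on both intermediate chains, Dync1i1 took 35.6% (34.6 to 36.7%) and 35.9% (35.3 to 36.5%), so their balance was the same within counting error. The heavy chain took 61.5% of the dynein reads in CFA replicate 1 (60.9 to 62.1%) and 64.3% in CFA replicate 2 (64.0 to 64.7%), and these intervals do not meet.

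Among the 4 myosins, Myo5a, which carries organelles along actin, had 486 and 536 CPM. Myo19, a myosin of mitochondria, had 4.18 and 4.30 CPM. Myo9a and Myo9b, which carry a domain that switches off small GTPases, had 171 and 64.1 CPM. Of the membrane skeleton, Ank1, an ankyrin that ties membrane proteins to spectrin, had 281 and 312 CPM. Sptb, a beta-spectrin, had 119 and 139 CPM. Both membrane skeleton genes were higher in CFA replicate 2, by 0.15 and 0.22 on the log2 scale.

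Among the genes that form vesicles, Dnm1, the neuronal dynamin that cuts endocytic vesicles from the membrane, had 407 and 418 CPM. Dnm3, a related dynamin, had 205 and 251 CPM, and Dnm1l, which divides mitochondria, had 251 and 292 CPM. All 3 were higher in CFA replicate 2, and Dnm3 took 23.8% of the reads on these genes in CFA replicate 1 (22.9 to 24.7%) and 26.1% in CFA replicate 2 (25.6 to 26.7%). Among the clathrin adaptors, Ap2b1, a subunit of the plasma membrane adaptor, had 573 and 615 CPM. Ap1b1, the corresponding subunit of the adaptor of the Golgi and endosomes, had 128 and 137 CPM. Snap91, a clathrin assembly protein of nerve terminals, had 437 ± 30.1 CPM, and Ap2a1, another subunit of the plasma membrane adaptor, had 202 ± 3.89 CPM.

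The 6 genes of synaptic vesicle proteins and synaptotagmins had 58.7 to 1261 CPM. Syt11, a synaptotagmin that does not bind calcium, had 1262 and 1259 CPM. Sv2a, a vesicle glycoprotein bound by the antiepileptic drug levetiracetam, had 58.1 and 59.3 CPM, the fewest reads of the group. The group showed little difference between the libraries, with log2 ratios between -0.01 and 0.08. Syt4 had 552 ± 1.23 CPM and Syt2, a calcium sensor of fast release, had 265 ± 1.66 CPM. Of the reads on the 3 Sv2 genes, Sv2b took 49.5% (48.4 to 50.5%) and 49.4%, Sv2c took 43.9% and 44.1%, and Sv2a took 6.66% and 6.48%. Of the reads on the 3 synaptotagmins, Syt11 took 60.7% in each library, with an interval of 60.3 to 61.1% in the deeper one.

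Of the SNAREs and their regulators, Vamp5, a SNARE known from muscle, had 3.52 and 4.37 CPM. The syntaxins of other membranes, Stx16 of the Golgi and Stx4 of the plasma membrane, had 61.8 and 27.3 CPM. Stxbp5l, a tomosyn that restrains release, had 31.4 CPM, and Vamp8, a SNARE of endosomes, had 9.10 CPM.

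The 12 Rab GTPases, regulators and effectors had few reads for the most part, with a median of 17.8 CPM. Rab9b, a relative of the late endosomal Rab9, had 165 and 162 CPM. Rab26, a Rab of secretory granules, had 2.57 and 2.74 CPM. Rab3a, the GTPase of synaptic vesicles, had 150.0 CPM, and its regulator Rab3gap2 had 101 CPM. The others were Rabgap1l, which bears a domain that switches off Rabs (47.7 CPM), Sytl3, a Rab effector (28.3 CPM), Rab34 (23.2 CPM), Rab7b (12.3 CPM), Rab29 (9.90 CPM), Rab12 (8.30 CPM), Rab13 (7.83 CPM) and Rab3il1, an exchange factor (5.54 CPM).

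Of the Arf regulators, Arfgef1, an exchange factor of the Golgi, had 207 and 245 CPM. Its relative Arfgef2 had 147 and 160 CPM, and Arl13b, a GTPase of cilia, had 14.2 and 12.9 CPM. Arl13b was lower and both exchange factors were higher in CFA replicate 2. Among the sorting nexins and Vps proteins, Vps35 of the retromer, which returns receptors from endosomes, had 357 and 383 CPM. Vps25, of an endosomal sorting complex, had 6 counts in the shallower CFA library and 21 in the deeper, which is 0.570 and 0.729 CPM. It was the only member with fewer than 10 counts in a library, and its ratio between libraries has an interval from -1.0 to 1.95 on the log2 scale. Vps50 (148 CPM) and Vps53 (74.6 CPM) belong to tethering complexes for returning vesicles, Snx6 (139 CPM) acts with the retromer, and Snx19 and Snx33 had 147 and 13.6 CPM.

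The prefixes also took in 5 genes outside these roles. Arl6ip1, a shaping protein of the endoplasmic reticulum, had 315 and 324 CPM. Myof (myoferlin), a membrane repair protein, had 14.9 and 15.5 CPM. Myoc (myocilin), a secreted glycoprotein, had 147 and 200 CPM, Sptlc3, a subunit of serine palmitoyltransferase, had 54.6 CPM, and Myom2 (myomesin), a protein of the sarcomere, had 18.7 CPM.

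The CFA libraries come from different rats and differ 2.74-fold in depth, so a ratio between them compares these libraries and no condition. It was taken as the log2 ratio of CPM, CFA replicate 2 over CFA replicate 1, for the 75 members that reached 10 counts in each. Only Myom2 and Rab13 differed by more than 0.5, which is 2 of 75, against 7.75% of all 15115 genes with that minimum. Myom2 had 14.5 CPM in CFA replicate 1 and 22.9 CPM in CFA replicate 2, a log2 ratio of 0.65 (95% exact interval 0.40 to 0.92). Rab13 had 9.41 and 6.24 CPM, a log2 ratio of -0.59 (-0.95 to -0.22). With at least 100 counts in both libraries, Myom2 alone of 66 members differed by more than 0.5, against 2.26% of 10449 genes. The SD of the log2 ratio was 0.17 over the 75 members and 0.29 over all genes, and with at least 100 counts it was 0.15 over the members and 0.19 over all genes. The SD of a member's CPM was under 5% of its mean in 44 of 76 members. This was not counted over all genes, so it does not set the members apart from other genes.

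Myoc, at a log2 ratio of 0.44 (0.36 to 0.52), and Snx33, at -0.37 (-0.65 to -0.09), followed. They were named after their values were seen. The interval excluded 0 for 36 of 75 members, against 25.6% of all genes at that minimum and, for 35 of 66 members, against 31.4% of genes that reached 100 counts in each library. Of the 75 members, 29 had an interval above 0, against 11.4% of all genes, and 7 had one below 0, against 14.2%. Intervals narrow with more reads, and the 75 members had a median of 147 CPM against 21.4 CPM for all genes at that minimum. Whether the intervals of members exclude 0 more often than those of genes of like level was not tested. In all, 48 of 75 members had a ratio above 0, against 47.5% of all genes (45 of 66 against 47.8% with at least 100 counts). With either median-of-ratios or TMM scaling 53 members did, but these scalings also raised the median of all genes, by 0.017 and 0.016. The share of all genes above 0 was not computed under them, so 53 cannot be set against 47.5%. Of the members with at least 100 CPM, 33 of 43 had a ratio above 0, against 53.7% of all genes at that level. Of the other members at the minimum of 10 counts, 15 of 32 did, against 46.4% of all genes under 100 CPM. These counts describe a pair of libraries, in which genes are not independent replicates.

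**Figure D3:**
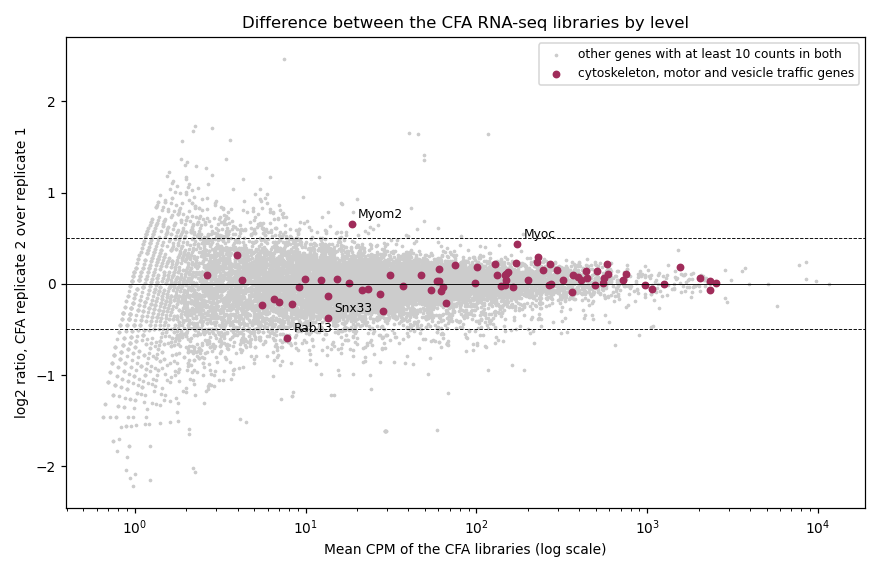
Log2 ratio of CFA replicate 2 over CFA replicate 1 (y axis) by mean CPM (x axis, log scale) for the 15115 genes that reached 10 counts in each library (grey) and 75 members (red), with dashed lines at 0.5 and -0.5. Myom2 and Rab13 are the members outside the lines.

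Markers of the cell types in the ganglion were present in both libraries. They come from the study's own lists of changed genes, since only these pair symbols with the table. All 28 neuronal, Schwann cell, glial and connective tissue markers had at least 10 counts in both. Summed over each list, the log2 ratio of CFA replicate 2 over CFA replicate 1 was 0.10 for 12 sensory neuron markers, -0.06 for 8 myelinating Schwann cell markers, -0.03 for 4 markers of satellite or other glia and -0.08 for 4 fibroblast, mural or endothelial markers. The sensory neuron sum was 14250 CPM in CFA replicate 1 and 15271 CPM in CFA replicate 2, of which Nefh alone had 7154 and 8262 CPM. The glial sum was 1947 CPM in CFA replicate 1 and 1906 CPM in CFA replicate 2. Most of it fell on S100b (1162 and 1127 CPM) and Ngfr (726 and 724 CPM). The medians of the single log2 ratios were near 0 and in part of the other sign, at -0.01 for sensory neuron, -0.0063 for Schwann cell, -0.02 for glial and 0.01 for fibroblast, mural or endothelial markers. Ratios above 0 were found for 6 of 12, 4 of 8, 1 of 4 and 2 of 4 of them. Gfap, a glial filament gene, had the lowest ratio, -0.56 (-0.81 to -0.32), and Kdr, an endothelial receptor gene, had 0.28. Myom2 is itself the only striated muscle marker that could be paired with a gene of the table. The part of cell type shares and of depth in the differences between the libraries was not tested. In a bulk library, fewer cells of a type and less RNA per cell cannot be told apart.

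Other genes of the same machinery were set beside the members. These were 36 genes of the study's list, all with at least 10 counts in both libraries, with a median of 156 CPM. The 10 microtubule proteins and tubulin enzymes ranged from Agbl5, which removes glutamates from tubulin (6.19 CPM), to Map1a, which binds axonal and dendritic microtubules (2164 CPM). The 4 dynein cofactors and adaptors ranged from Nde1 (7.64 CPM) to Pafah1b1 (Lis1), a dynein activator (1804 CPM), with the dynactin subunit Dctn1 at 617 CPM. The 19 genes of vesicle release and recycling ranged from Unc13b, a priming factor (7.75 CPM), to Cltc, the clathrin heavy chain (1330 CPM). The 3 membrane skeleton genes were Add2 (135 CPM), Tmod1 (185 CPM) and Epb41l3 (1023 CPM). None of the 36 differed by more than 0.5 between the libraries, against 7.75% of all genes and 2.26% of genes with at least 100 counts. A ratio above 0 was found for 26 of 36, against 47.5% of all genes and 53.7% of genes with at least 100 CPM. Some of the 36 lie below these levels, so no share is fully matched for level.

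Kif13b is the member that the study names as the nearest gene of a region with changed accessibility in both pain models. The region lies at chr15:48090366-48090685 in build rn6, and no rn6 annotation was used here to place it relative to the exons of Kif13b. Accessibility is the deposited log2 normalized coverage of the region, which is set separately for the table of CCI with naïve libraries and for the table of CFA with naïve libraries. In the CCI table the naïve libraries had 2.82, 3.31 and 3.41. The 6 CCI libraries ranged from 3.83 to 4.81 with a median of 4.36. Every CCI library lay above every naïve library. In the CFA table the same naïve libraries had 3.01, 3.48 and 3.60, and the 6 CFA libraries ranged from 4.04 to 4.79 with a median of 4.47. Again the groups did not overlap, which held for 9.11% of the 56810 regions in the CCI table and 11.0% in the CFA table. The study chose this region for its difference in these libraries, so the lack of overlap is no independent test.

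The difference was 1.20 (SE 0.23) for CCI minus naïve, with means of 4.38 ± 0.37 (SD, n = 6) and 3.18 ± 0.32 (n = 3). It was 1.10 (SE 0.19) for CFA minus naïve, with means of 4.46 ± 0.28 (n = 6) and 3.36 ± 0.31 (n = 3). The region was chosen on these libraries, so no p is given. Both differences use the same naïve libraries. By the labels, each naïve and CFA library had 2 sequencing runs, but 4 of the 6 CCI libraries had 1 run. The difference was 0.87 for the 2 CCI libraries with 2 runs and 1.37 for the 4 with 1 run. The expression of Kif13b in naïve animals was not analysed here, so accessibility was not set against expression.

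The regions around it served as comparison. They may include the start of Kif13b itself, so not all of them need be unrelated to the gene. Within 200 kb on either side lay 14 further consensus regions, which the study did not choose. None had a limma p below 0.001 in either comparison (0 of 14 in each), where 0.910% of all regions did for CCI and 1.12% for CFA. At such shares 0 of 14 is likely, so it does not set these regions apart. At an unadjusted p under 0.05, 1 of 14 passed for CCI, against 16.0% of all regions (7.45% with lower accessibility, the direction of that region), and 0 of 14 for CFA, against 18.9%. By the exact permutation test, two-sided, over the 84 splits of 9 libraries, 0 of 14 were under 0.05 for CCI, against 13.9% of all regions, and 1 of 14 for CFA, against 18.0%. The smallest limma p with Benjamini-Hochberg adjustment over all regions was 0.238 for CCI and 0.307 for CFA. The differences of the 14 regions had a median of -0.08 for CCI, where 10 were lower than naïve, and of 0.12 for CFA, where 11 were higher. The medians over all regions were -0.04 and 0.0057. The share of all regions lower or higher than naïve was not counted, and both comparisons use the same naïve libraries. Whether the 14 regions shifted as a group was therefore not tested.

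Both of these calls fell on the region at chr15:48030726-48031585. Its centre lies at -59.4 kb from that of the region near Kif13b. In size this is close to the distance that the study lists from the latter to Kif13b. The region may therefore lie at the start of Kif13b, which was not checked against an annotation. In the CCI table its naïve libraries had 6.93, 6.98 and 7.08, the CCI libraries with 2 runs had 6.87 and 6.94, and those with 1 run had 6.08, 6.09, 6.22 and 6.35. The CCI libraries with 1 run lay apart from all the others. The difference was -0.57 (SE 0.22; limma p = 0.0229, adjusted p = 0.238; exact permutation p = 0.0714), and it was -0.10 with the 2 CCI libraries of 2 runs. In the CFA table the naïve libraries had 7.37, 7.43 and 7.55, and the 6 CFA libraries ranged from 6.75 to 7.35 with a median of 7.21. The difference was -0.29 (SE 0.15; limma p = 0.0697, adjusted p = 0.307; exact permutation p = 0.0476), with no overlap between the groups. The nearest region to that of Kif13b, 18.6 kb away at chr15:48108768-48109563, differed by 0.15 (SE 0.20) for CCI and 0.18 (SE 0.18) for CFA, within the spread of the libraries.

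**Figure D4:**
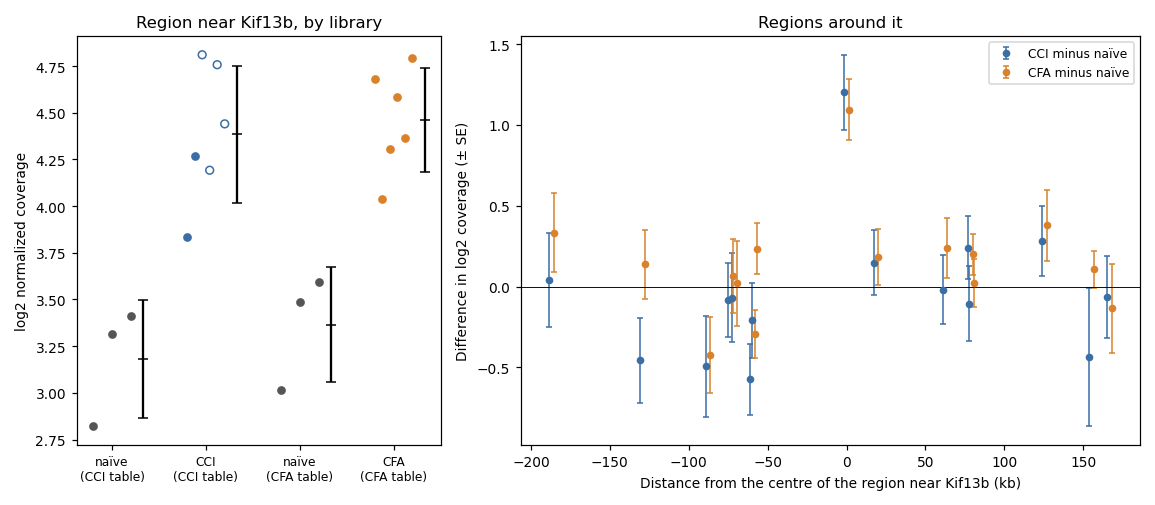
Left, log2 normalized coverage of the region near Kif13b (y axis) in each library by group, with open points for libraries sequenced in 1 run and bars for the mean ± SD. Right, difference from naïve (y axis, ± SE) of that region and its 14 neighbours by distance from its centre (x axis, kb), where the region near Kif13b has 1.20 for CCI and 1.10 for CFA and the neighbours lie between -0.57 and 0.38.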

How the data were processed

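The submitters' processing notes and the methods name HISAT2 and build rn6 for RNA-seq, and Bowtie2, MACS2 and limma for ATAC-seq. For RNA-seq, the table deposited by the authors gives the raw count of each Ensembl gene from featureCounts, whose strand setting is not given in the sources used here. They deposited log2 normalized coverage per consensus region after downsampling the ATAC-seq libraries, and these values do not give the depth of single libraries. Groups and runs come from the sample labels, and CCI columns were matched to replicate numbers through the sample descriptions. The names of 2 CFA ATAC-seq columns match no single library (here CFA a and CFA b).

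Member symbols were paired with Ensembl genes through the study's list, of which no other value was used. Counts were scaled to the library total as CPM, and ratio intervals are exact binomial (95%). Depth was 10520647 and 28825688 counts, so counting error is small for members above 100 CPM. Regions were compared with limma 3.58.1 in R 4.3.3, fitted on all 56810 regions, two-sided, at the study's unadjusted p of 0.001, with Benjamini-Hochberg adjustment. Alternatives used DESeq2 1.42.0 size factors and edgeR 4.0.16 TMM factors. Methods were tested on simulated data. All members but 1, which is not reported here, are named. Values per library are given for the highest and lowest of each role, members differing by over 0.5 and members under 10 counts, and further ones were chosen after their values were seen. Members, lists, motifs and tests were chosen with earlier results of these data known. Promoters are from RefSeq (GRCr8), and 2 longer motifs that were also searched are not reported here. Python 3.11.15 with pandas 2.3.3 was used.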

Additional observations from a re-analysis of the deposited data

Results flagged for a closer look

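In 30 groups of 6 libraries, from 15 regions around Kif13b in both pain models, 3 had a library apart from the others by Dixon's test at the 95% level, where chance gives about 1 in 20 groups. At chr15:48168860-48169527, CCI replicate 2 had a log2 coverage of 5.64, the lowest, with a gap of 0.725 of the group's range. At chr15:48245431-48245824, CCI replicate 3 had 3.03, the lowest, with a gap of 0.706. At chr15:48152703-48153197, the library CFA b had 4.92, the lowest, with a gap of 0.736. None of the 3 lies in the region near Kif13b.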

How the results depend on the processing

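The median of the members stayed at 147 CPM with size factors, TMM factors or a minimum of 10 counts in both libraries. Their share of counts was 2.64% of the counts on genes with that minimum. The share is taken within each library, so scaling does not enter it. The single libraries gave medians of 142 and 149 CPM and shares of 2.59 and 2.68%. With only 2 libraries, leaving 1 out moves a mean by less than their SD whatever the values, so this is no check of stability. The number of members differing by more than 0.5 between the libraries was 1 with a minimum of 100 counts. The number of regions around Kif13b with p below 0.001 stayed at 0 in both comparisons under each alternative, leaving out each library included. It was 1 for CCI at an unadjusted p of 0.05. With 0.910% (CCI) and 1.12% (CFA) of all regions passing at 0.001, a count of 0 among so few regions is likely in any case. The repeated 0 therefore does not show that the surroundings stay unchanged. The difference at the region near Kif13b ranged from 1.02 to 1.32 for CCI and from 0.92 to 1.21 for CFA with single libraries left out, and was 0.87 with the CCI libraries of 2 runs only. With the replicate number as a block, 0 regions passed for CCI and the difference at the region near Kif13b was 1.12. The labels do not say that equal numbers pair the samples, so the result with the block carries little weight. The deviations of same-numbered CCI and naïve libraries correlated at -0.058, 0.073 and -0.029, which gave no sign of pairs but cannot exclude them. No paired analysis was possible for CFA because its columns share too few numbers with the naïve libraries. The normalized ATAC-seq values do not give the depth of single libraries, and 2 RNA-seq libraries allow no comparison between conditions.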
